A study of Mus musculus with 20 samples.

Results

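Cytochrome P450 genes of the mouse liver other than 15 named ones were followed through hemorrhagic shock with severe trauma and resuscitation. Of 73 P450 symbols that stood alone on a probe set of the Affymetrix Mouse430_2 array, 59 were left once the 15 had been set aside (Cyp7a1, Cyp7b1, Cyp8b1, Cyp27a1, Cyp2b9, Cyp2b10, Cyp2c29, Cyp2c55, Cyp3a11, Cyp3a13, Cyp4a10, Cyp4a14, Cyp51, Cyp2e1 and Cyp1a2; Cyp4a10 had no probe set of its own). A gene was kept if its signal exceeded that array's median on 3 or more of the arrays, and 45 of the 59 did. They were part of 12832 genes tested. Of the 45, 31 read above the median on all 20 arrays. The other 14 did so on fewer, so that a difference in those may rest on the group in which the gene was bright. The 14 genes that were not kept (Cyp11b1, Cyp11b2, Cyp24a1, Cyp27b1, Cyp2b13, Cyp2b19, Cyp2c65, Cyp2d12, Cyp2j11, Cyp2j13, Cyp3a16, Cyp4f18, Cyp4f41-ps and Cyp4x1) read above the median on 0 to 2 arrays per probe set.

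The arrays came from whole liver of male C57BL/6 mice aged 8-12 weeks. The 5 groups were non-manipulated control mice (5 arrays), mice with minor trauma (3 arrays), mice after 1.5 h of hemorrhagic shock and severe trauma (4 arrays, called shock), and mice given 1 h or 4.5 h of resuscitation after the same 1.5 h of shock and trauma (4 arrays each). What the minor trauma was, when those mice were sampled and what fluid was given are not stated in the sources used here. The labels do not say in words that each array is a separate mouse, and if some were not, p-values measure only the spread between these arrays. Levels are log2 of the signal plus 6 after quantile normalization, on which scale the array median was 4.60. They can be compared between arrays for 1 gene, not between genes.

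Cytochromes P450 are heme enzymes of the endoplasmic reticulum and mitochondria that take electrons from a reductase and insert oxygen into their substrates. The liver holds the largest store of those that oxidize drugs, toxins and steroids (the CYP1, CYP2 and CYP3 families), and it also carries fatty acid hydroxylases (CYP4) and enzymes that act on retinoids, vitamin D and sterols. Many of the drug-metabolizing forms are known to be lower in liver during inflammation.

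Hepatocyte markers were bright, and several facts of the arrays touch the results. The 9 hepatocyte markers tested summed to 60601 to 64142 on the control arrays and to 61281 to 64086 at 4.5 h. These and the later marker sums were taken from the quantile normalized levels, off the log2 scale. That normalization gives every array the same set of values, which holds sums of very bright genes close together. The hepatocyte sums therefore cannot show whether hepatocyte content was steady. No scaling between arrays was seen in the deposited signals, whose array medians ran from 14.0 to 29.1. The poly-A spike-in control dap was present on 10 arrays, 2 in each group, and near 0 on the other 10. Control array 5 resembled minor trauma array 2 more than any control array (r = 0.983 across genes, which are not independent replicates), and minor trauma array 3 had the lowest weight in the fit with array weights (0.177). The number of arrays, 3 to 5 in a group, limits the precision of every value.

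Across the 5 groups, 25 of the 45 P450 genes differed by limma's moderated F test (55.6%), against 45.4% of all genes tested. Most calls against control lay late in resuscitation, for the P450 genes as for all genes. At 4.5 h 24 of the 45 were lower than in control and none was higher, at an adjusted p of at most 0.05. Of all genes 23.8% were lower then and 15.1% higher. Over all genes limma called 38.9% in either direction at 4.5 h, against 3.44% after minor trauma, 3.11% in shock and 9.91% at 1 h. Before 4.5 h, single P450 genes moved against control: Cyp26a1 rose in shock and Cyp17a1 was lower at 1 h of resuscitation.

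**Figure D1:**
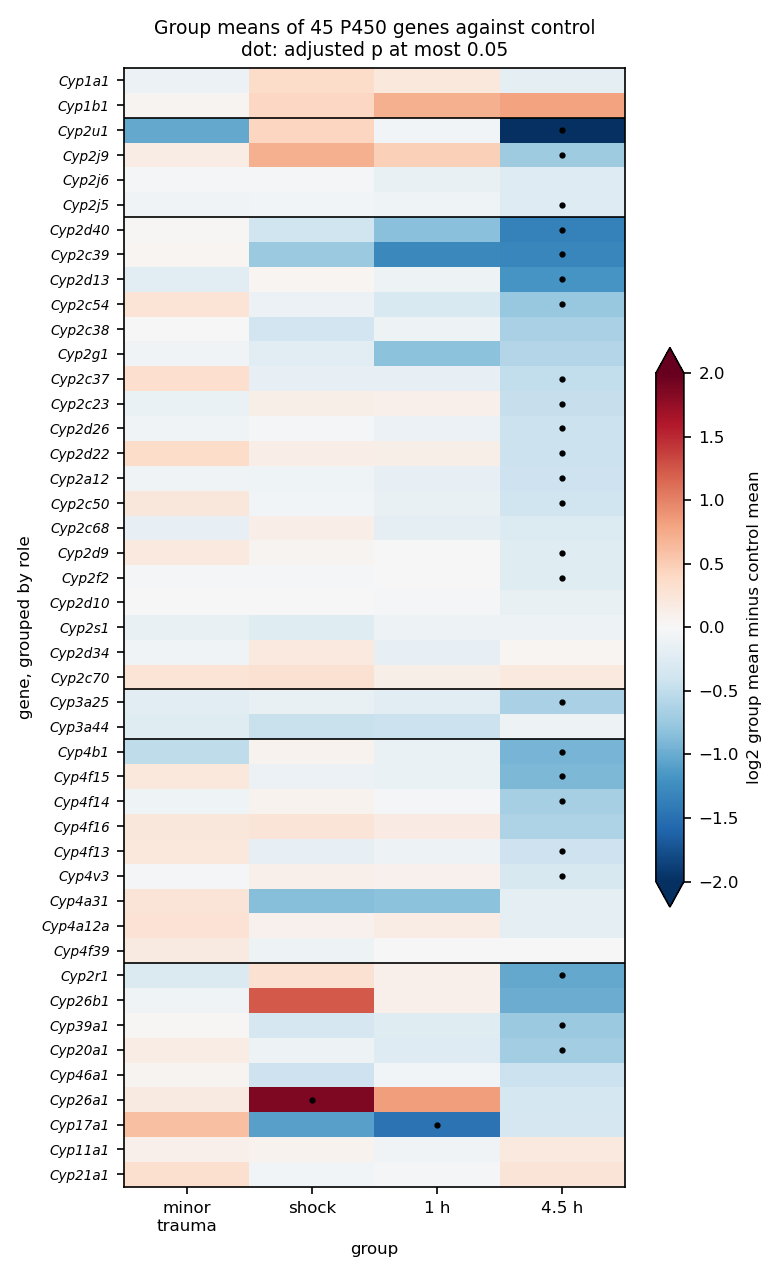
Heat map of the 45 P450 genes (rows, grouped by role) in 4 groups (columns). Colour gives the log2 group mean minus the control mean, on a scale that saturates at 2 in either direction, and a dot marks an adjusted p of at most 0.05; the dots number 0 for minor trauma, 1 for shock, 1 at 1 h and 24 at 4.5 h.

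After minor trauma none of the 45 P450 genes was called higher and none lower, where 2.07% of all genes were called higher and 1.37% lower. With median centring, which moved the median of all genes to 0.14, these shares were 5.05% and 0.60%, and Cyp2c50 and Cyp2d9 were called higher. By limma 8 of the 45 had an unadjusted p under 0.05, and the 2 with the smallest p are given in full. Cyp2d9, a steroid hydroxylase typical of male mouse liver, read 12.36, 12.28, 12.29, 12.40 and 12.31 on the control arrays and 12.52, 12.46 and 12.61 after minor trauma. All 3 minor trauma arrays lay above all 5 controls, by a small amount (log2 difference 0.20 ± 0.06 SE, limma adjusted p = 0.065). Cyp2u1, which hydroxylates long-chain fatty acids such as arachidonic acid, read 6.66, 7.05, 6.77, 5.82 and 5.71 in control and 5.99, 4.21 and 5.92 after minor trauma. Its groups overlapped, with control arrays 4 and 5 among the minor trauma values, and the difference of -1.03 ± 0.35 was not called (limma adjusted p = 0.0991). Without minor trauma array 2 it was -0.45, and on the second probe set of Cyp2u1 -0.07. Without control array 5 there were 3 calls: Cyp2c50 higher, and Cyp2u1 and Cyp4b1 lower. Without minor trauma array 1 Cyp2u1 alone was called, and without minor trauma array 2 Cyp2d22 and Cyp2d9 were, both higher.

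At the end of shock 1 of the 45 genes was called higher than in control and none lower, where the shares of all genes were 2.03% higher and 1.08% lower, and 5 of the 45 had an unadjusted p under 0.05 by limma. With values as deposited the shares were 1.33% and 0.218%. The gene was Cyp26a1, which hydroxylates retinoic acid and so removes it, and which is itself known to be induced by retinoic acid through response elements in its promoter. Cyp26a1 read 6.91, 7.98, 8.41, 7.78 and 7.28 in control and 9.33, 10.32, 9.02 and 9.47 in shock. All 4 shock arrays lay above every control array, a 3.63-fold rise (log2 1.86 ± 0.38, limma adjusted p = 0.00673). The minor trauma arrays, at 7.43, 8.35 and 7.75, lay within the control range. The 1 h arrays read 8.41, 8.25, 8.01 and 9.37 and overlapped control (0.84 ± 0.38, limma adjusted p = 0.198). In shock 3 of the 6 neutrophil markers tested were also higher than in control, with a summed signal of 526 to 2281 against 126 to 420. No marker of hepatocytes, Kupffer cells and macrophages, endothelium, cholangiocytes, stellate cells, T and NK cells or B cells was called then by limma (2 had an unadjusted p under 0.05, 1 endothelial and 1 stellate). The part of the neutrophil markers in this result was not tested.

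Within the spike-in sets the rise of Cyp26a1 in shock was 1.85 on the log2 scale among the arrays without spike (limma adjusted p = 0.353, 2 shock arrays against 3 controls), and no other alternative ended the call. Its relative Cyp26b1, the second retinoic acid hydroxylase on the list, read 4.95, 7.58, 7.07 and 6.65 in shock against 4.55, 5.89, 5.10, 6.63 and 4.48 in control. Shock array 1 sat among the controls and the other 3 above them, and the gene was not called (1.23 ± 0.49, limma adjusted p = 0.23), but it was when shock array 1 was left out. A second gene was also called when either of 2 control arrays was left out: Cyp17a1, lower, without control array 1, and Cyp2j9, higher, without control array 4.

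The 250 bases before the start of Cyp26a1 are shown because it was the P450 gene that rose in shock. They lie at chr19:37697558-37697807 on the plus strand of GRCm38.p6, from RefSeq. Capitals mark a pair of the letters AGTTCA, 5 bases apart, read on the opposite strand, the arrangement in which retinoic acid receptors are known to bind direct repeats. The pair begins 32 bases before the start, and 0.0213% of all 32851 RefSeq promoter windows of this length hold it on either strand. Of the 39 windows found for the P450 genes 1 held it, that of Cyp26a1. The part of retinoic acid in the rise in shock was not tested.
Cyp26a1: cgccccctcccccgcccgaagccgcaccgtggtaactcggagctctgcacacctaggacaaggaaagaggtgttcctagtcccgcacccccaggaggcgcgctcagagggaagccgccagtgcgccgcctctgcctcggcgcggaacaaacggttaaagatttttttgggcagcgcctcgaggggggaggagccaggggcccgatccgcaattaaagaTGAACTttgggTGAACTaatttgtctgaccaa

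Shock set against minor trauma compares severe injury and blood loss with a lesser injury. The sampling time after minor trauma is not stated, so injury and time cannot be told apart. Here 3 of the 45 genes were higher and 1 was lower, against 4.18% and 5.38% of all genes. With median centring the shares were 2.51% and 7.47% and with values as deposited 0.951% and 1.95%, with medians of all genes at -0.13 and -0.22, so directions here are relative to the scaling. Of the neutrophil markers 2 of 6 were higher in shock than after minor trauma, where their sum was 280 to 570. Of the other markers 1 of 5 for stellate cells was higher and 1 of 8 for Kupffer cells and macrophages lower, and the part of these in the result was not tested. The higher P450 genes were Cyp26a1 (log2 difference 1.69 ± 0.44, limma adjusted p = 0.0181), Cyp2u1 and Cyp2r1. Cyp2u1 read 6.93, 6.88, 6.68 and 6.81 in shock, all above the 3 minor trauma arrays, a 2.74-fold difference (1.45 ± 0.37, limma adjusted p = 0.0163). Its second probe set did not pass (0.34, adjusted p = 0.542 over all probe sets), nor did the mean of its probe sets (0.89, limma adjusted p = 0.0612). Cyp2r1, the main vitamin D hydroxylase of liver, which makes the circulating form of the vitamin, read 7.73, 7.79, 7.52 and 7.70 in shock and 7.29, 7.03 and 6.96 after minor trauma. The groups did not overlap, and the difference was 1.51-fold (0.59 ± 0.15, limma adjusted p = 0.0131).

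The lower gene was Cyp17a1, which makes the precursors of sex steroids in gonads and is also read in rodent liver. Cyp17a1 read 5.47, 5.30, 5.64 and 6.27 in shock and 6.95, 7.67 and 7.44 after minor trauma, a 3.21-fold difference without overlap (-1.68 ± 0.52, limma adjusted p = 0.0452). Leaving out a single array ended its call for 13 of the 20: minor trauma array 2 or 3, shock array 1, 2 or 3, or any array of either resuscitation group (adjusted p = 0.051 to 0.124). It also ended with no filter (0.0642), without the intensity trend (0.0641) and with the spike-in set as a block (0.0529). The call of Cyp26a1 ended without minor trauma array 1 or 3 or shock array 2 (adjusted p = 0.0601 to 0.0673), that of Cyp2u1 without minor trauma array 2, where the difference was 0.87 (0.0832), and that of Cyp2r1 without minor trauma array 3 (0.0562). The count of 4 became 7 without control array 5, and 2 without minor trauma array 2, minor trauma array 3 or shock array 2. Values as deposited kept Cyp26a1 and Cyp17a1 and ended the calls of Cyp2u1 (adjusted p = 0.0525) and Cyp2r1 (0.661), and median centring ended that of Cyp2r1 (0.127). Within the spiked set 1 of the 4 was called, Cyp26a1, and within the set without spike none was (limma; 8 had an unadjusted p under 0.05), with directions unchanged for all 4 genes.

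In the first hour of resuscitation the P450 genes moved little. At 1 h against control 1 gene was lower, Cyp17a1, and none was higher, against 5.31% and 4.61% of all genes, and 8 had an unadjusted p under 0.05 by limma. The shares of all genes were 1.08% lower and 2.67% higher with values as deposited, 2.75% and 4.22% with median centring and 7.12% and 4.33% with 2% trimmed mean scaling. At 1 h 4 of 6 neutrophil markers were higher (summed signal 2621 to 4074), as were 1 endothelial and 1 cholangiocyte marker, and 1 hepatocyte and 1 Kupffer cell and macrophage marker were lower; their part in the result was not tested. A second probe set of Cyp4a31 was lower (-1.70, adjusted p = 0.0254 over all probe sets), while the brighter one, which stands for the gene, was at -0.81 and not called. Cyp17a1 read 4.83, 5.88, 7.75, 8.27 and 7.04 in control and 5.63, 5.02, 5.0 and 5.43 at 1 h. The control arrays were wide apart, and control array 1 lay below all 4 of the 1 h arrays and control array 2 above them, so the groups overlapped (-1.48 ± 0.46, 2.79-fold, limma adjusted p = 0.0428). Leaving out a single array ended the call for 11 of the 20: control array 3, 4 or 5, shock array 1 or 3, any 1 h array, or 4.5 h array 2 or 4 (adjusted p = 0.05 to 0.12). With the spike-in set as a block the adjusted p was 0.0542, with no filter 0.0624, without the intensity trend 0.0604 and with only the 2 groups fitted 0.131. With no filter Cyp4f18 was called higher in place of Cyp17a1, so that the count stayed at 1. For Cyp17a1 within the spike-in sets the differences were -2.04 (spiked, adjusted p = 0.102) and -1.01 (without spike, 0.574). In fits without 1 array, Cyp2c39 was called too without control array 1 and in place of Cyp17a1 without 1 h array 1, Cyp2d40 too without control array 2 or 4.5 h array 1, and Cyp2j9 (higher) in its place without control array 4. From shock to 1 h no gene of the 45 was called by limma in either direction, where 0.873% of all genes were higher and 0.374% lower, and 2 had an unadjusted p under 0.05 (Cyp26a1 at -1.02 and Cyp26b1 at -1.13).

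At 4.5 h of resuscitation 24 of the 45 P450 genes were lower than in control and 0 higher, by limma at an adjusted p of at most 0.05. An unadjusted p under 0.05, in either direction, was seen for 26. Of all genes 23.8% were lower and 15.1% higher. The median log2 difference of the 45 was -0.42, beside -0.09 for all genes, and 40 of the 45 differences were negative. For 16 of the 45 every 4.5 h array lay below every control array, against 18.7% of all genes, and for none of the 45 did every array lie above. Among the 31 genes above the median on all 20 arrays 21 were lower. The share among all genes that pass this stricter filter is not given here, so that count cannot be set against the 23.8%. For 34 of the 45 the lowest of the 20 values fell on a 4.5 h array, against 34.6% of all genes.

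The fall was seen on each 4.5 h array. The median shift of the 45 genes from their control means was -0.48 to -0.35 on the 4 arrays, where that of all genes was -0.10 to -0.07. On the other 16 arrays the P450 median shift lay between -0.12 and 0.13. Within the spiked set 13 of 44 genes were lower, against 12.5% of all genes, and within the set without spike 16 of 43 were lower and 1 (Cyp1b1) higher, against 14.5% and 9.18%. Of the 24 calls 7 held under all 37 alternatives: Cyp2c54, Cyp2d13, Cyp2r1, Cyp2u1, Cyp3a25, Cyp4b1 and Cyp4f15. Without control array 5 the count was 23 lower, and without it and minor trauma array 3 together 23 lower and 1 (Cyp1b1) higher. With values as deposited, in which the median of all genes was itself -0.27, 14 were lower and 0 higher, and the shares of all genes were 16.6% lower and 6.15% higher. In whole tissue, fewer cells of a type and less RNA per cell cannot be told apart.

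**Figure D2:**
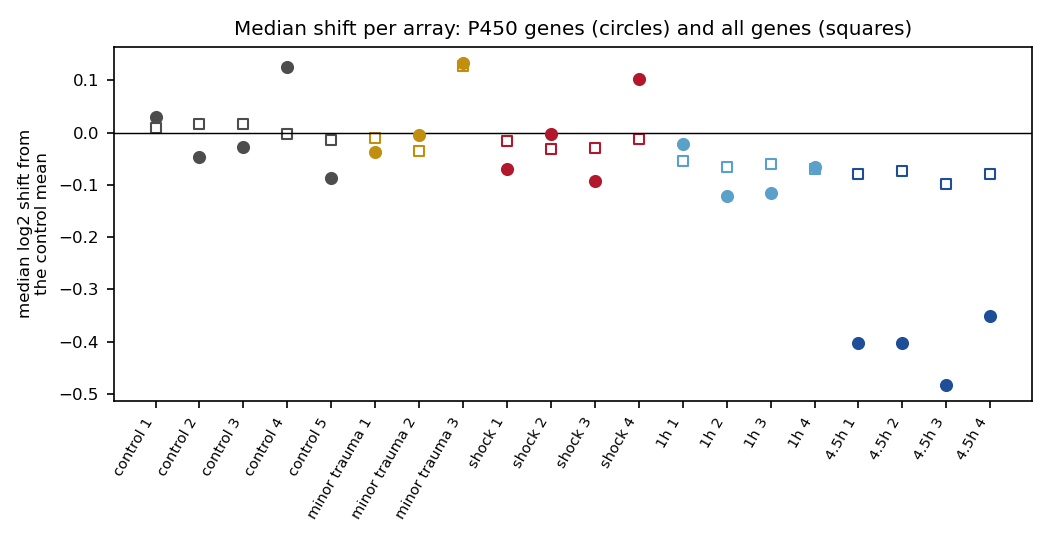
Median log2 shift from the control mean on each of the 20 arrays (x axis), for the 45 P450 genes (circles) and for all 12832 genes (squares), coloured by group. The circles of the 4 arrays at 4.5 h lie at -0.48 to -0.35 and those of the other arrays at -0.12 to 0.13.

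Other cell types moved at the same time. At 4.5 h 4 of the 6 neutrophil markers tested were higher than in control, with a summed signal of 3883 to 4439, against 2621 to 4074 at 1 h, 526 to 2281 in shock and 126 to 420 in control. Of 8 Kupffer cell and macrophage markers 1 was higher and 6 were lower (1244 to 1578 against 2720 to 4184). Of 6 endothelial markers 2 were higher and 3 lower, of 5 stellate cell markers 2 were lower, of 3 cholangiocyte markers 2 were higher, and of the 2 T and NK cell and 2 B cell markers tested none was called by limma (0 at an unadjusted p under 0.05). Of the 9 hepatocyte markers Fgb was higher, and Cps1 and Asgr1 were lower. The part of these shifts in the P450 result was not tested.

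**Figure D3:**
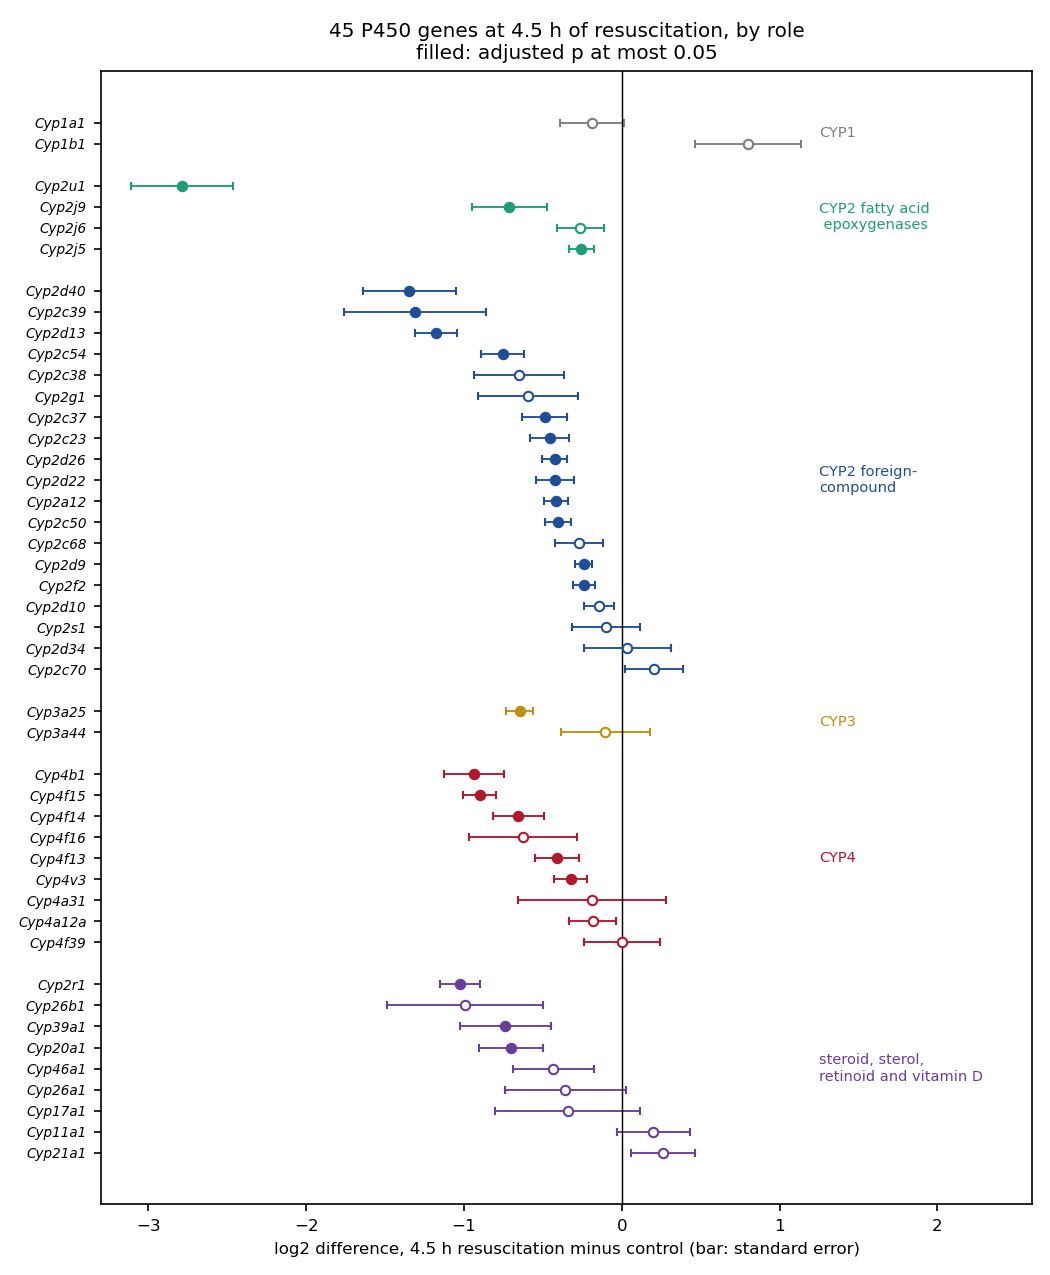
Log2 difference at 4.5 h of resuscitation minus control (x axis, with its standard error) for the 45 P450 genes (y axis), coloured by role, with n = 4 against 5 arrays. Filled points have an adjusted p of at most 0.05; all 24 of them lie below 0, from Cyp2u1 at -2.78 to Cyp2d9 and Cyp2f2 at -0.24.

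The family of fatty acid enzymes CYP2J and CYP2U, which turn arachidonic acid into signalling lipids, had 3 of 4 members lower. Cyp2u1 fell farthest of the 45. It read 3.16, 3.85, 3.21 and 4.24 at 4.5 h, against 5.71 to 7.05 in control, and 6.54, 6.23, 6.20 and 6.43 at 1 h. All 4 late arrays were below the array median, so the fall on this probe set was at least 3.47-fold from control (log2 difference -2.78 ± 0.32, limma adjusted p = 8.05e-07). A second probe set for Cyp2u1 fell by less (-0.71, adjusted p = 0.0409 over all probe sets tested). Cyp2j9 read 5.93, 6.12, 5.50, 7.09 and 6.35 in control and 5.36, 5.60, 5.67 and 5.31 at 4.5 h, where control array 3 lay among the late values (-0.71 ± 0.24, limma adjusted p = 0.0225). Its call ended without control array 4 or 4.5 h array 1 or 4. Cyp2j5, a bright member, fell by 0.26 (adjusted p = 0.0126), and by 0.93 on its second probe set; on the first its call ended with values as deposited, median centring, 2% trimmed mean scaling and without 4.5 h array 3. Cyp2j6 was at -0.26 and not called (0.176).

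Of the 19 CYP2 genes of foreign-compound and steroid metabolism (CYP2A, CYP2C, CYP2D, CYP2F, CYP2G and CYP2S) 12 were lower. The farthest was Cyp2d40, which read 6.02, 4.81, 6.18, 5.69 and 6.16 in control and 3.46, 4.89, 4.72 and 4.63 at 4.5 h. Control array 2 lay among the late arrays and the other 4 above them (2.54-fold, -1.35 ± 0.30, limma adjusted p = 0.000979), and within the spiked set the difference was not called (adjusted p = 0.164). Cyp2c39, which can hydroxylate retinoic acid, read 4.21, 5.04, 5.10, 6.09 and 4.99 in control and 4.41, 2.83, 3.43 and 4.44 at 4.5 h. All 4 late arrays were below the array median, so the fall was at least 1.40-fold (-1.31 ± 0.45, limma adjusted p = 0.0256). Its groups overlapped, and the call ended without control array 4, 4.5 h array 2 or 4.5 h array 3 (adjusted p = 0.0691 to 0.11).

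Cyp2d13 was the clearest of the family. It read 9.32, 9.13, 9.17, 8.86 and 8.80 in control and 7.94, 7.77, 7.74 and 8.06 at 4.5 h, with a wide gap between the groups (2.26-fold, -1.18 ± 0.13, limma adjusted p = 5.64e-07). Its second probe set fell by the like amount of 1.22. Cyp2c54, one of the CYP2C enzymes that metabolize arachidonic acid, read 11.47, 11.18, 11.14, 11.62 and 11.82 in control and 10.56, 10.87, 10.84 and 10.49 at 4.5 h, again without overlap (1.69-fold, -0.76 ± 0.14, limma adjusted p = 0.000146). Cyp2d9 read 12.12, 12.10, 12.09 and 12.03 at 4.5 h. It had the smallest spread within groups of the 45 (pooled SD 0.0545), and a fall of 1.18-fold lay clear of all control arrays (-0.24 ± 0.06, limma adjusted p = 0.00149). This call ended with values as deposited, median centring, 2% trimmed mean scaling and within the spiked set. The 7 other CYP2 genes that fell were Cyp2c37, Cyp2c23, Cyp2d26, Cyp2d22, Cyp2a12, Cyp2c50 and Cyp2f2, which activates naphthalene, by 0.24 to 0.49 on the log2 scale. With values as deposited none of these 7 was called, and with median centring Cyp2d22 and Cyp2f2 were not. The 7 that were not called ran from Cyp2c38 at -0.65 to Cyp2c70, the muricholic acid enzyme of mouse liver, at 0.20.

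The Cyp2d genes lie together on chromosome 15, and Cyp2d9 and Cyp2d10 have nearly the same sequence before the start. Cyp2d10 stood at -0.15 ± 0.09 at 4.5 h (limma adjusted p = 0.24, groups overlapping), while Cyp2d9 and Cyp2d26 fell, the latter by 0.43. Cyp2d10 was called without 4.5 h array 4, and under the 3 other scalings neither it nor Cyp2d9 was. The difference between the genes was not tested, and probe sets of such close relatives may catch each other's transcripts. The 60 bases before the start are shown for the 3 genes, from RefSeq on GRCm38.p6 (chr15:82452317-82452376 plus for Cyp2d9, chr15:82407195-82407254 minus for Cyp2d10 and chr15:82794246-82794305 minus for Cyp2d26). Capitals mark TATAAA, the TATA box letters, read here on the opposite strand. With a shift of 3 bases Cyp2d9 and Cyp2d10 shared 54 of 57 bases, and Cyp2d26 shared 28 of 57 with Cyp2d9.
Cyp2d9: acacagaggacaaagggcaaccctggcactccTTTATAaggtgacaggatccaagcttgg
Cyp2d10: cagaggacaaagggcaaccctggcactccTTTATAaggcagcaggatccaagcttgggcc
Cyp2d26: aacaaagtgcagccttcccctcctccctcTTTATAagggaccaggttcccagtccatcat

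In the CYP3 family, Cyp3a25, which oxidizes drugs and steroids, read 12.41, 12.43, 12.50, 12.60 and 12.43 in control and 11.81, 11.77, 11.73 and 12.00 at 4.5 h, a fall clear of every control array (1.57-fold, -0.65 ± 0.09, limma adjusted p = 5.39e-06). Cyp3a44, a form of female mouse liver, read above the array median on 3 arrays and was at -0.10 (adjusted p = 0.808). The CYP1 genes, which are targets of the aryl hydrocarbon receptor, were not called. Cyp1b1 read 5.40, 4.56, 5.03 and 5.03 at 4.5 h and 3.57, 4.73, 3.83, 4.54 and 4.35 in control, with overlap on control array 2 (0.80 ± 0.34, limma adjusted p = 0.0641), and Cyp1a1 was at -0.19. The call of Cyp1b1 as higher appeared in fits without control array 2, minor trauma array 2 or 3, or 4.5 h array 2.

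Of the 9 CYP4 genes, which put a hydroxyl group on the end of fatty acids and eicosanoids, 5 were lower. Cyp4f15, of the group that inactivates leukotrienes, read 9.77, 9.68, 9.67, 9.72 and 9.60 in control and 8.76, 8.85, 8.70 and 8.84 at 4.5 h. The control arrays were close together and the late ones well below them (1.87-fold, -0.90 ± 0.10, limma adjusted p = 7.18e-07). Cyp4b1 read 8.44, 8.21, 8.73, 8.65 and 7.67 in control and 7.42, 7.64, 7.17 and 7.39 at 4.5 h, where control array 5 stood just above the highest late array (1.91-fold, -0.94 ± 0.19, limma adjusted p = 0.000528). Cyp4f14, Cyp4f13 and Cyp4v3 fell by 0.66, 0.41 and 0.32. The call of Cyp4f13 ended without control array 1 or 4 and that of Cyp4v3 without control array 2 or 3, and with values as deposited neither was called. Cyp4f16 (-0.62), Cyp4a31 (-0.19), the male form Cyp4a12a (-0.18) and Cyp4f39 were not called. Control array 4 (8.89) and 4.5 h array 4 (8.10) stood above the other arrays of their groups for Cyp4a31, which read 5.74 to 6.76 and 6.07 to 6.35 on those.

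Of the 9 genes in the group of steroid, sterol, retinoid and vitamin D enzymes, which by its symbol prefixes also holds Cyp20a1, a P450 without a settled substrate, 3 were lower. Cyp2r1 read 7.49, 7.50, 7.68, 7.18 and 7.06 in control and 6.24, 6.34, 6.44 and 6.42 at 4.5 h, with no overlap (2.03-fold, -1.02 ± 0.13, limma adjusted p = 1.98e-06). The other 2 were Cyp20a1 (-0.70, adjusted p = 0.00804) and Cyp39a1, an oxysterol hydroxylase of bile acid synthesis (-0.74, adjusted p = 0.0469). The call of Cyp39a1 ended under 22 of the 37 alternatives, among them 13 of the 20 fits without 1 array: control array 3, 4 or 5, any shock array, 1 h array 1, 3 or 4, or 4.5 h array 1, 2 or 3. A second probe set of Cyp20a1 was at -0.45 and not called (adjusted p = 0.106 over all probe sets). The retinoic acid hydroxylases were not called, Cyp26a1 at -0.36 ± 0.38 and Cyp26b1 at -0.99 ± 0.49 (limma adjusted p = 0.504 and 0.12). Nor were Cyp17a1 (-0.34), Cyp46a1 (-0.44), Cyp11a1 (0.20) and Cyp21a1 (0.26). The second probe set of Cyp21a1, an adrenal steroid hydroxylase, rose by 1.14 (adjusted p = 0.00568 over all probe sets). Its probe sets had the same sign but differed in size and in call, so the size of any rise is uncertain.

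**Figure D4:**
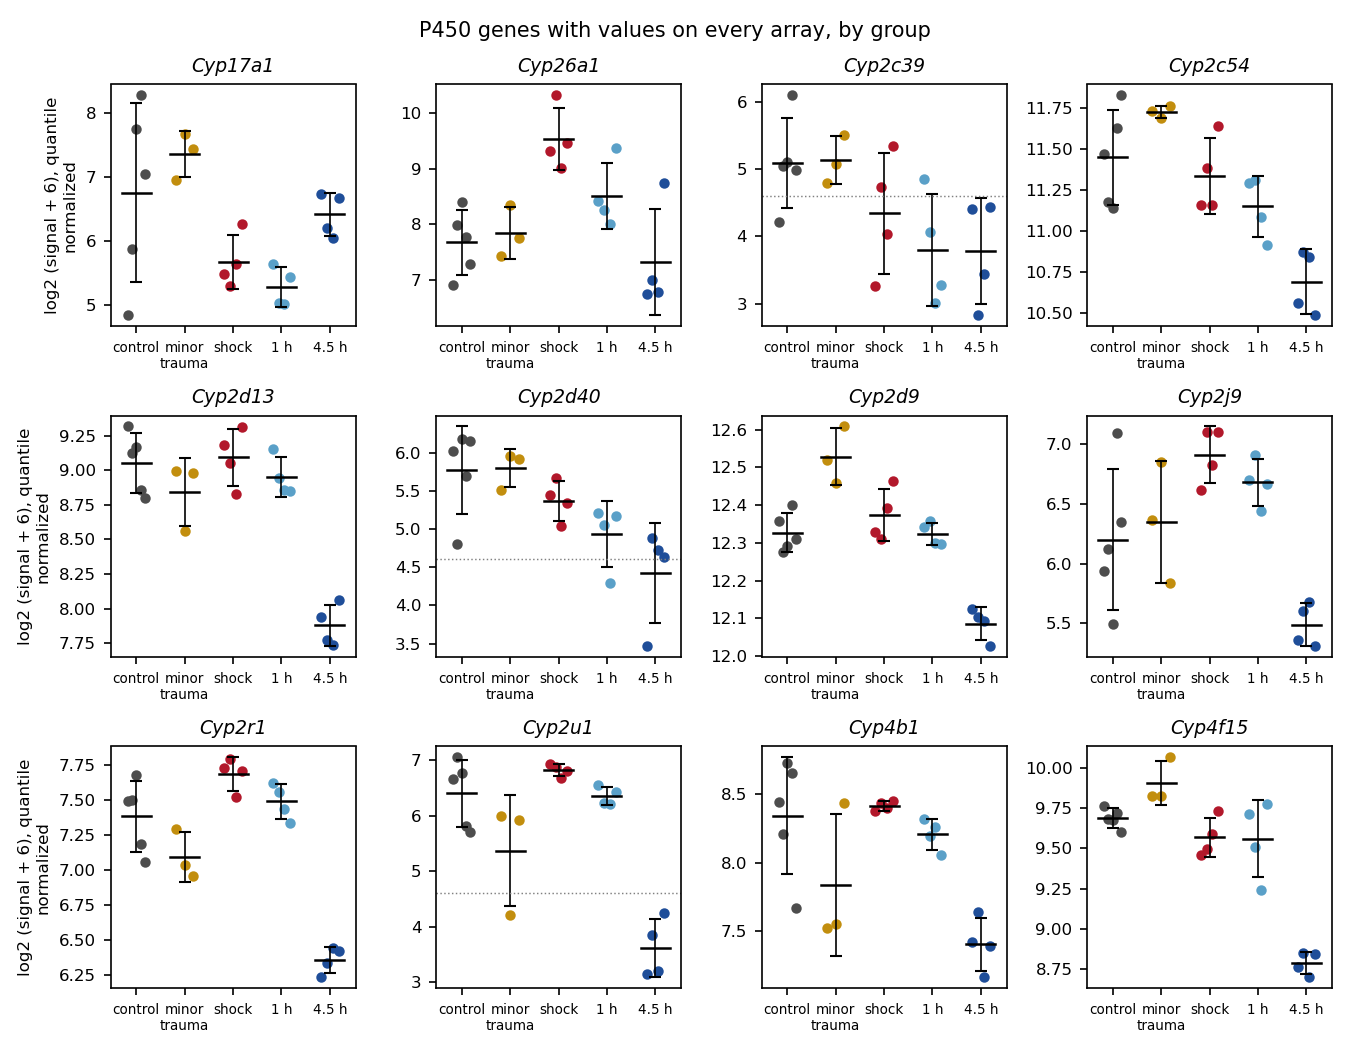
Level of 12 P450 genes on every array (y axis, log2 of signal plus 6, quantile normalized) in the 5 groups (x axis; 1 h and 4.5 h are times of resuscitation). Points are arrays, horizontal lines are group means, bars are 1 SD and dotted lines, in panels with values below it, mark the array median of 4.60; the 4.5 h arrays lie below every control array for Cyp2c54, Cyp2d13, Cyp2d9, Cyp2r1, Cyp2u1, Cyp4b1 and Cyp4f15.

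Between 1 h and 4.5 h of resuscitation 18 of the 45 genes were lower and 0 higher, against 18.2% and 14.9% of all genes, with 25 of the 45 at an unadjusted p under 0.05 in limma and a median of -0.32 beside -0.04 for all genes. For 19 of the 45 all 4.5 h arrays lay below all 1 h arrays, against 18.5% of all genes. The comparison shares its 4.5 h arrays with the one against control, so the 2 are not independent. By role, 2 of 4 CYP2J and CYP2U genes, 9 of 19 other CYP2 genes, 1 of 2 CYP3, 4 of 9 CYP4, 2 of 9 steroid, sterol, retinoid and vitamin D genes and 0 of 2 CYP1 were lower.

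On the probe set that stands for the gene, Cyp2u1 fell by at least 3.36-fold in this step (-2.74 ± 0.34, limma adjusted p = 3.53e-06). The second probe set of Cyp2u1 was at -0.72 and not called (adjusted p = 0.0566 over all probe sets). Cyp2c39 averaged below the array median at both times, so a change in this step could not be measured. Cyp2j9 read 6.70, 6.91, 6.44 and 6.67 at 1 h, above all 4 of the late arrays, so it fell 2.28-fold (-1.19 ± 0.25, limma adjusted p = 0.001). Cyp2r1 read 7.62, 7.56, 7.44 and 7.34 at 1 h and fell 2.19-fold without overlap (-1.13 ± 0.13, limma adjusted p = 1.92e-06). Cyp26a1 read 6.75, 6.99, 6.78 and 8.74 at 4.5 h and was 2.29-fold lower than at 1 h (-1.19 ± 0.41, limma adjusted p = 0.0275), with 4.5 h array 4 inside the 1 h range. That call ended without 1 h array 4 or without 4.5 h array 1, 2 or 3 (adjusted p = 0.0741 to 0.11). Cyp17a1 went the other way: its 4.5 h arrays, at 6.73, 6.20, 6.05 and 6.66, all lay above its 1 h arrays, a difference that was not called (1.14 ± 0.48, limma adjusted p = 0.0754) except without control array 1 or 4 or in a fit of these 2 groups alone. Within the spiked set 6 of 44 genes were lower, against 6.33% of all genes, and within the set without spike 8 of 43, against 10.4%. With values as deposited 8 of the 45 were lower, against 9.02% of all genes lower and 4.47% higher, and with median centring 20 were, against 19.4% and 9.69%. The calls of Cyp2d13, Cyp2j9, Cyp2r1 and Cyp2u1 held under all 37 alternatives, and those of Cyp2a12, Cyp2c50 and Cyp2c54 each ended in 2 to 4 of the fits without 1 array.

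Of the 45 genes 3 were called in opposite directions in different comparisons: Cyp26a1, Cyp2r1 and Cyp2u1 were higher in shock than after minor trauma and lower at 4.5 h than at 1 h. For Cyp2u1 neither call was made on the second probe set. The share of all genes called in opposite directions is not given here, so the count of 3 is not read as a trait of P450 genes. Cyp2r1 stayed near the control range through 1 h, at 0.30 ± 0.13 in shock and 0.11 ± 0.13 at 1 h (limma adjusted p = 0.268 and 0.704), before its fall. Cyp2u1 stood at 0.43 ± 0.32 in shock and at -0.05 ± 0.32 at 1 h (0.627 and 0.958).

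RefSeq promoter windows on GRCm38.p6 were found for 33 of the 45 genes, with 39 windows in all, and searched on both strands over the 250 bases before the start. Matches of different words were counted apart even where they overlapped. TATAAA was in the windows of 11 of the 33 genes, that is in 11 of their 39 windows, and in 12.4% of all windows. Of the 18 genes that fell at 4.5 h and had a window 5 held it, and of the other 15 genes 6 did. TTGCNNAA, a core of the C/EBP binding site, was in 10 of the 39 windows and in 9.56% of all windows. The 10 belonged to 6 of the 33 genes, so some were windows of the same gene. Of these 6 genes 5 were among the 18 that fell and 1, Cyp11a1, among the other 15. CAAAGTCCA, a form of the HNF4A site, was in 2 genes (Cyp2c68 and Cyp2c70), in 2 of the 39 windows, and in 0.384% of all windows. A match is a description of the sequence and not a shown binding site. The 30 bases around TTGCNNAA are given for the 5 genes that fell and not for Cyp11a1. At 4.5 h Cebpa, the gene of the liver factor C/EBP alpha, fell and Cebpb rose. The part of either factor in the P450 result was not tested. The 8 letters of the match are in capitals, as read on the gene's strand. For Cyp20a1, Cyp2c37 and Cyp3a25 the word TTGCNNAA itself is read on the opposite strand.
Cyp20a1: ttaagtctactTTGTGCAAgcggactggtg
Cyp2c37: tgaatgagagaTTAAGCAAtgtttgattag
Cyp2j9: gcgggccaaagTTGCTGAAgtgaatagagc
Cyp3a25: aagttcgagcaTTGTGCAAgtggcccttgt
Cyp4f14: cctggttagttTTGCATAAtttagggaggt
They lie at chr1:60343135-60343164 plus, chr19:39992319-39992348 plus, chr4:96591506-96591535 minus, chr5:146009688-146009717 minus and chr17:32917119-32917148 minus, in that order.

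Some genes for proteins that serve P450 enzymes also differed at 4.5 h, where 23.8% of all genes were lower and 15.1% higher. Of 5 redox partners tested 3 were lower and none higher: Cyb5b (log2 difference -1.05 ± 0.20, adjusted p = 0.000204), Cyb5r3 (-0.58) and the heme-binding partner Pgrmc1 (-0.27). Por, the reductase of microsomal P450, and Fdxr were not analysed here. Of 11 genes of heme synthesis and breakdown 4 were lower and 2 higher. The synthesis enzymes Cpox (-1.26 ± 0.18), Alad (-0.79 ± 0.13) and Fech (-0.46 ± 0.12) and the biliverdin reductase Blvrb (-0.77 ± 0.15) fell, while Hmox1, which breaks heme down, rose by 2.47 ± 0.36 and Alas1, the first enzyme of synthesis, by 1.41 ± 0.51 (adjusted p = 1.41e-05 and 0.0337). Hmox1 was at the like level at 1 h (2.43 ± 0.36), the only gene of that list called then. After minor trauma Alas1 alone was called (2.06 ± 0.56, adjusted p = 0.0462), and in shock Hmox2 alone (0.40 ± 0.11, adjusted p = 0.0428). No redox partner was called by limma in those 3 earlier comparisons with control, with 2, 1 and 0 of the 5 at an unadjusted p under 0.05 after minor trauma, in shock and at 1 h.

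Of 20 genes for regulators of P450 transcription 8 were lower and 4 higher at 4.5 h. Those that fell most were Nr1i3, the receptor CAR (-1.86 ± 0.28, adjusted p = 2.07e-05), Nr1h4, the bile acid receptor FXR (-1.57 ± 0.15, adjusted p = 7.81e-08), and Hlf, a clock output factor (-1.26 ± 0.15). Cebpa fell by 1.18 ± 0.23, Rxra by 0.77, Ppara by 0.70, Foxa2 by 0.63 and Tef by 0.62. Cebpb, the C/EBP form of the acute phase, rose by 1.03 ± 0.19, Ahr by 0.75, Arnt by 0.49 and Hnf4a by 0.31. Changes were fewer before. After minor trauma Cebpb (0.87) and Nr1i2, the receptor PXR (0.86), were higher and Nr3c1, the glucocorticoid receptor, was lower (-1.04). In shock Cebpb (1.14) and Nr0b2 (1.09) were higher and Foxa2, Tef and Ppara lower, and at 1 h Cebpb was higher (0.85) and Dbp (-1.90), Foxa2 (-1.11), Tef, Nr1h4 and Ppara were lower. Of the 14 P450 genes left out of the list that could be tested 5 were lower and 2 higher at 4.5 h, the latter Cyp2b10 and Cyp2b9.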

How the data were processed

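Labelled liver RNA was hybridised to 20 Affymetrix Mouse430_2 arrays. The deposited values are intensity signals from MAS5, per the submitters' processing notes, with no version given in the sources used here, on a linear scale and not scaled between arrays. A pseudocount of 6 was added, and log2 values were quantile normalized. Probe sets above their own array's median on at least 3 arrays were kept (27274 of 45101, of which 64 were control probe sets). Gene symbols came from the platform annotation: 34945 probe sets had 1 gene, 932 several and 9160 none. Each gene was read from its brightest kept probe set by mean, which left 12832 of 18193 genes. Probe sets with several P450 symbols (4) were left out.

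Tests used limma 3.58.1 (R 4.3.3, with version 1.17.8 of the package data.table): a single model of 5 group means over 20 arrays, 7 contrasts, an intensity trend, and Benjamini-Hochberg adjustment over all genes tested within each comparison. Calls were made at an adjusted p up to 0.05; errors are standard errors unless named SD. The script was tested on simulated data. A fold is a bound where no array of the dimmer group exceeded the array median; each such array was then set to the median, and the brighter group's mean was compared with that. Per-array values are given for the up to 8 called genes with the largest change in each comparison with control (4 in the other comparisons), for genes called in both directions and, where none was called, for the 2 with the smallest p, and for a few more (Cyp26b1, Cyp1b1, Cyp3a25 and Cyp4a31) chosen after their values were seen. Roles were assigned by symbol prefix. Members and lists were chosen with earlier results of these data known. Samples with the same replicate number in different groups were not shown to be paired. RefSeq promoter windows were searched and figures drawn with python 3.11.15, pandas 2.3.3, numpy 2.4.6 and matplotlib 3.10.9. The 37 alternatives are in the closing section. A further word searched in the promoters is not reported here.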

Additional observations from a re-analysis of the deposited data

Results flagged for a closer look

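Of 48 groups of 4 or 5 arrays of the 12 genes with values in full, 2 held an array far from the others by Dixon's ratio, which chance flags in about 1 of 20 groups. Cyp26a1 read 8.74 on 4.5 h array 4 and 6.75 to 6.99 on the other 3 arrays of that group. Cyp2d40 read 4.30 on 1 h array 3 and 5.06 to 5.21 on the other 3.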

How the results depend on the processing

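The text's counts of called P450 genes were recomputed under 37 alternatives with limma. At 4.5 h against control the count of 24 was 14 with values as deposited and 13 within the spiked set, and at 4.5 h against 1 h the count of 18 was 8 with values as deposited, 6 within the spiked set and 8 within the set without spike. The count of 25 by the F test was 11 within the spiked set and 8 within the set without spike. The within-set fits hold 10 arrays each. For shock against minor trauma the count of 4 was 2 with values as deposited, 8 with array weights, 1 within the spiked set and 0 within the set without spike. For shock against control the count of 1 was 2 with array weights and 0 within the set without spike. For 1 h against control the count of 1 was 2 with values as deposited and with 2% trimmed mean scaling. It was 0 without the intensity trend, with only the 2 groups compared, without both control array 5 and minor trauma array 3, within the spiked set and with the spike-in set as a block. For minor trauma the count of 0 was 2 with median centring, 1 with array weights and 2 without those 2 arrays. Where counts moved, the cause was not tested beyond the fewer arrays of the within-set fits.

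Leaving out each array in turn gave 21 to 25 at 4.5 h against control, 15 to 19 at 4.5 h against 1 h, 20 to 25 by the F test, 2 to 7 for shock against minor trauma, 1 to 2 for shock, 0 to 2 at 1 h, 0 to 3 for minor trauma and 0 in each fit from shock to 1 h. The replicate block, a fit with the replicate number as a block, gave 24, 19, 24, 5, 1, 0, 1 and 0 in the same order. It ended the call of Cyp17a1 at 1 h (adjusted p = 0.0509). Same-numbered arrays of different groups were not shown to be paired: of 36 correlations of their deviations from the group means 3 exceeded 0.1, with a range of -0.08 to 0.17. Of the single-gene values 670 kept direction and side of the threshold, 64 lost the call, 5 gained one and 0 changed sign. Values as deposited moved the median of all genes after minor trauma to 0.20 and median centring to 0.14, so directions there are relative to the scaling. In that comparison 1.70% of all genes were called higher and 0.0935% lower with values as deposited. Genes near the array median are known less well than bright ones.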
